A study of Homo sapiens with 4 samples.

Results

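The genes AXL, MERTK, TYRO3, MET, PDGFRA, PDGFRB, KIT and IGF1R encode receptor tyrosine kinases, and GAS6 encodes the ligand shared by AXL, MERTK and TYRO3. Accessible regions were assigned to them by position: a region of the deposited table belonged to a gene if it overlapped the gene's RefSeq GRCh38 span extended by 10 kb on both sides. This rule gave 93 regions for the 9 genes, out of 125986 regions in all, and used no measured value. IGF1R held 37 of them, MET 14, PDGFRB 9, MERTK 8, AXL and GAS6 6 each, TYRO3 and PDGFRA 5 each, and KIT 3.

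The data came from A375, an established human melanoma cell line grown in DMEM with serum. Octanoate is a fatty acid of medium chain length; it was given at 1 mM for 48 h, and control cells received isopropanol, the vehicle, for as long. Open chromatin was mapped by ATAC-seq, which relies on the transposase Tn5 to insert sequencing adapters where DNA is exposed. Each group had 2 libraries, and the labels do not say whether these came from separate cultures, so the spread may be technical. The authors deposited 1 table with, for each region, a normalized read count averaged across all 4 libraries (here the mean signal), the log2 fold change of octanoate over vehicle, its standard error and p-values from DESeq2. It held 0 columns for single libraries, so no value per library is given and the depth of each library is unknown. In whole cultures, a change in every cell and a change in the share of cells that are open at a site cannot be told apart.

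Receptor tyrosine kinases are surface receptors that work in pairs, phosphorylate each other when a ligand binds and recruit adaptors that switch on the RAS-ERK and PI3K-AKT pathways. In melanoma, AXL, MET, PDGFRB and IGF1R are known for signalling that can bypass an inhibited BRAF-ERK pathway. KIT is a receptor that melanocytes and their precursors need to survive and migrate, and AXL is commonly high in melanoma cells with low activity of MITF, the regulator of the pigment cell programme. Listed regions did not set the labelled cell type apart from others. At least 1 region lay in the span of 7 of 7 melanocytic marker genes (MITF, SOX10, PMEL, MLANA, TYR, DCT and TYRP1), and also of 3 of 3 epithelial, 2 of 3 lymphocyte and 1 of 2 hepatocyte marker genes. The lymphocyte gene PTPRC had 9 regions with a highest mean signal of 93.3, above that of each melanocytic gene but MITF (168). RefSeq start windows, at hand for some of these genes, lay in listed regions for 2 of 5 melanocytic genes (MITF and DCT), 1 of 1 epithelial gene (KRT8), 0 of 1 lymphocyte gene (PTPRC) and 0 of 1 hepatocyte gene (ALB).

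The starts of the 9 genes are shown first, because the region with the highest mean signal lay at a start in MET, PDGFRA, KIT, MERTK and IGF1R, and because AXL, PDGFRA and TYRO3 each have an upstream and a downstream start. RefSeq (GRCh38.p14) gives 12 start windows for the 9 genes, each 300 bases long, from 250 before to 50 after a transcription start. A listed region overlapped 10 of the 12, all but the upstream PDGFRA and the downstream TYRO3 window, against 66.8% of 22182 such windows of protein-coding genes. The 250 bases before the start are printed 5′ to 3′ on the gene's strand for the starts that carry the contrasts described here. Capitals mark matches, on either strand, to 6 motifs: TGANTCA for AP-1, CATTCC for TEAD, ACAAAG for SOX, CANNTG for the E-box, GGGCGG for the GC box and TATAAA for the TATA box.
AXL upstream start, chr19:41218973-41219222, plus strand: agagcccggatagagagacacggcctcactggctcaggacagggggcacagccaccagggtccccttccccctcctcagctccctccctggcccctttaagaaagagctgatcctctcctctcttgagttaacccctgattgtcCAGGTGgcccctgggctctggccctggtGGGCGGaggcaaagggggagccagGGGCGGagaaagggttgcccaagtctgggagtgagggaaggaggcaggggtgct
AXL downstream start, chr19:41226505-41226754, plus strand: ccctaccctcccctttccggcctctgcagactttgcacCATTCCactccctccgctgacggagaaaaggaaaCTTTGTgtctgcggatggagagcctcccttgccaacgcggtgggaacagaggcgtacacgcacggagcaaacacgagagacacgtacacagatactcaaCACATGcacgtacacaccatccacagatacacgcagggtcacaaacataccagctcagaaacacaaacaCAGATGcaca
PDGFRA upstream start, chr4:54229043-54229292, plus strand: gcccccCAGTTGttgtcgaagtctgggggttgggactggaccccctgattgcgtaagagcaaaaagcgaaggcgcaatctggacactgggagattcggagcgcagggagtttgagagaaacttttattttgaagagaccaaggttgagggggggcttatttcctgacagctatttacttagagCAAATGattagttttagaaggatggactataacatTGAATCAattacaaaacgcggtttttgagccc
PDGFRA downstream start, chr4:54233710-54233959, plus strand: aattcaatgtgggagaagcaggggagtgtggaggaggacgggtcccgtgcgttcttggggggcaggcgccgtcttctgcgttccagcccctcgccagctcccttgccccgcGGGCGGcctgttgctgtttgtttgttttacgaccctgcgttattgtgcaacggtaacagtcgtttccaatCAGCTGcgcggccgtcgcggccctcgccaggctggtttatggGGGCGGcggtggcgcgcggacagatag
MET, chr7:116671946-116672195, plus strand: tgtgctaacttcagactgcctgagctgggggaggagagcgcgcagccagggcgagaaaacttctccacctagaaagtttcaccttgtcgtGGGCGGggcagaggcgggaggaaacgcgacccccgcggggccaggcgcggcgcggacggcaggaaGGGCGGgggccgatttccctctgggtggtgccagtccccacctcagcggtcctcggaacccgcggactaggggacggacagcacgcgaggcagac
KIT, chr4:54657707-54657956, plus strand: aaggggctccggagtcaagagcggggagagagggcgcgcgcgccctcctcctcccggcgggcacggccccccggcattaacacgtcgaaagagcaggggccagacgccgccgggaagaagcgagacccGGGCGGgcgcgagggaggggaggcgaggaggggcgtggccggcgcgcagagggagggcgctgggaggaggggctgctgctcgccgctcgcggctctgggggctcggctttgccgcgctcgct
IGF1R, chr15:98648289-98648538, plus strand: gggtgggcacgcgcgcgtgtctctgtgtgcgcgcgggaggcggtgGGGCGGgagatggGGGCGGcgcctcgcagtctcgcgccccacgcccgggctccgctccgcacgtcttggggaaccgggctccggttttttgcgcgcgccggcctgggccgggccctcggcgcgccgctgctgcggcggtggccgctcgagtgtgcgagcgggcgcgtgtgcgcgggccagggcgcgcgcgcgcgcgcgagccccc

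The windows differed in composition. The IGF1R window had 55 CpG dinucleotides and 79.7% G or C, and the TYRO3 upstream window had 49 CpG and 80.3%, against medians of 21 CpG and 62.3% over 21986 distinct windows of protein-coding genes. The AXL upstream window had 7 CpG and the PDGFRA upstream window had 8, the fewest of the 12. A GC box occurred in 9 of the 12 windows, against 56.3% of all windows, and an E-box in 9 of 12, against 65.1%. Among the 10 windows that a listed region overlaps, 9 had a GC box and 7 an E-box, against 71.5% and 59.1% of all windows so covered. AP-1 letters occurred in the upstream windows of TYRO3 and PDGFRA (6.16% of all windows), and TEAD letters (12.2%) and SOX letters (13.7%) both occurred in the downstream AXL window alone among the 12. The TATA box, found in 9.52% of all windows, matched in 0 of the 12. Counting the first transcribed base as 1, the MET window also held the E-box CACGTG at position 4 and a GC box at position 13, and the KIT window held the E-box CACTTG at position 2, all beyond the bases printed. No matches of different motifs overlapped in these windows, and a match is a description of letters, not of a bound site.

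None of the 93 regions passed the threshold used here, an adjusted p under 0.05. Of the 93, 16 had a mean signal of at least 63.8 normalized reads, the lowest at which DESeq2 gave an adjusted p, and are called tested; the other 77 had none. Among the 16 tested regions, 0 had an adjusted p under 0.05 in the authors' deposited table, where 1.02% of all 11185 tested regions did. At an unadjusted p under 0.05, 4 of the 16 were higher after octanoate and 0 were lower, against 14.8% and 0.107% of all tested regions. These 4 regions lay within IGF1R. Over all 93 regions, tested or not, 5 were higher and 0 lower at that p, and 3.58% and 0.179% of all listed regions were. DESeq2 is the only tool whose calls are given, since no other could be run on this table.

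The median log2 fold change of the 93 regions was 0.21 in the authors' deposited table, and that of all listed regions was 0.23. IGF1R held 37 of the 93, and the median was 0.12 over the 56 regions of the other genes and also 0.12 as the median of the 9 gene medians. Of these gene medians, 6 lay below 0.23, down to -0.036 for KIT, 0.055 for PDGFRB and 0.077 for PDGFRA, and 3 lay above it. Values were above 0 in 67 of 93 regions (72.0%), and in 72.1% of all listed regions. All 16 tested regions were above 0, from 0.11 to 0.55, with a median of 0.31, where 85.7% of all tested regions were above 0 with a median of 0.19. After subtracting that tested median, which by definition divides all tested regions evenly around 0, 12 of the 16 stayed above 0. Of the 16, 0 then reached an unadjusted p under 0.05 in either direction (3.16% higher and 1.01% lower over all tested regions). At an adjusted p under 0.05 there were also 0 (0.0536% of all tested regions).

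**Figure D1:**
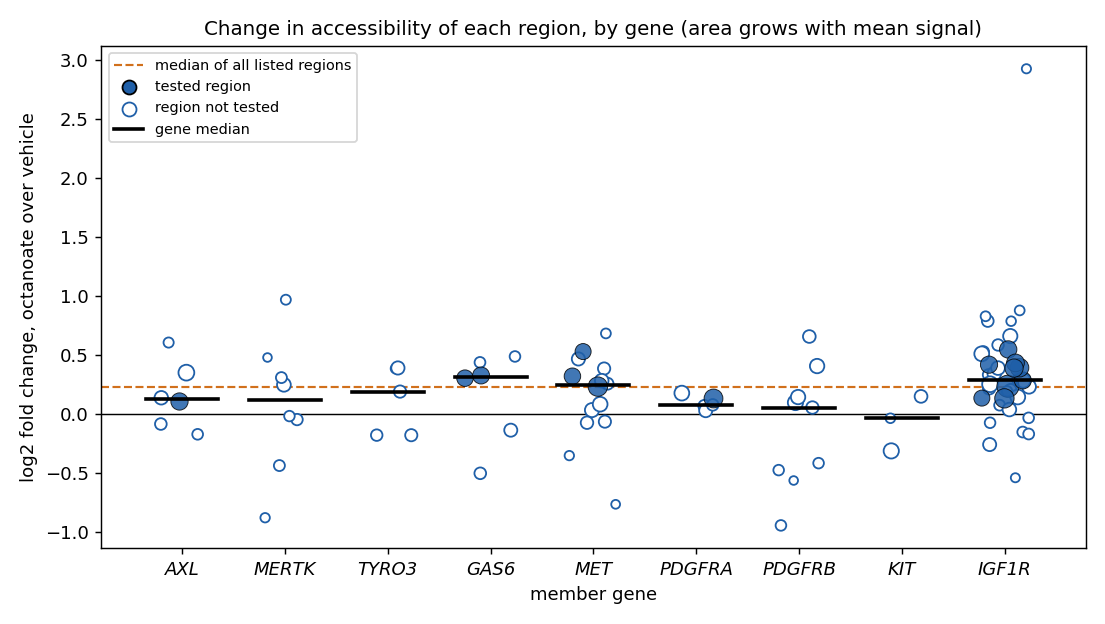
Log2 fold change of octanoate over vehicle (vertical axis) for each of the 93 regions, grouped by gene, with point area growing with mean signal, filled points for the 16 tested regions and a bar at each gene's median. All filled points lie above 0, between 0.11 and 0.55, and the point at 2.93 in IGF1R is an untested region with a mean signal of 5.01.

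The standard errors set how large an estimate had to be for a call. The weakest call in the whole table had a Wald statistic (log2 fold change over its standard error) of 3.48. For the 16 tested member regions this corresponds to a log2 fold change of 0.50 at the IGF1R start, the most precise, to 0.97 at the least precise, a region within MET. These are sizes of an estimate, not limits on the true change.

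**Figure D2:**
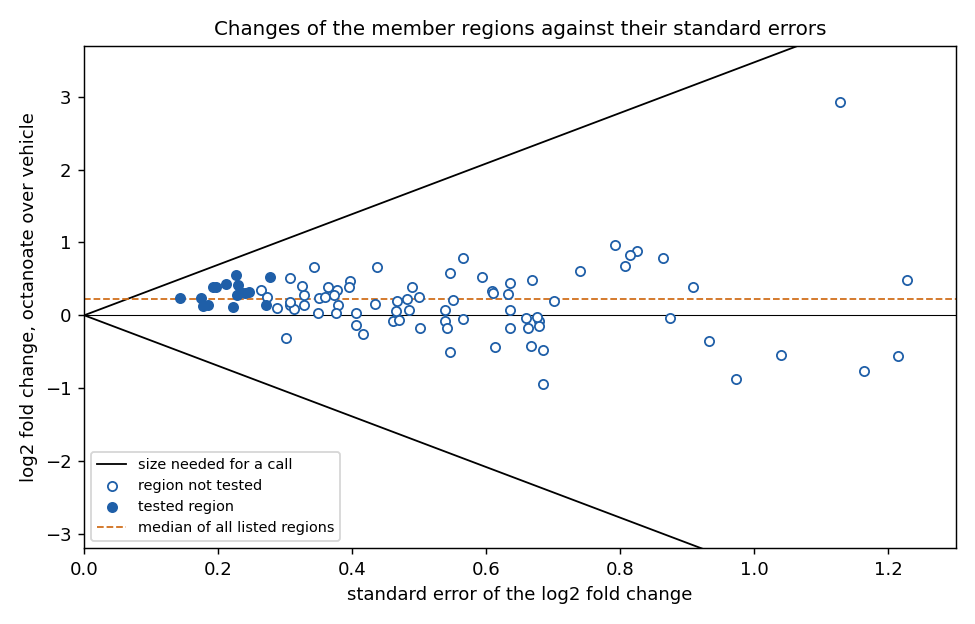
Log2 fold change of octanoate over vehicle against its standard error for the 93 regions, filled where tested, with black lines at 3.48 standard errors, the weakest statistic that was called anywhere. All 93 points lie between the lines.

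The TAM receptors AXL, MERTK and TYRO3 bind GAS6 on phosphatidylserine and take part in the clearance of dying cells and in survival signalling. Together with GAS6 they had 25 regions, 3 of them tested; the authors' deposited table gave a median of 0.19 (log2), with 15 above 0. No member of this group passed the threshold.

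AXL spans chr19:41219223-41261766 on the plus strand. Its upstream start lay in a weak region (chr19:41218726-41219308) with a mean signal of 15.9 in the authors' deposited table, or 27.2 normalized reads per kb of region. The region at its downstream start (chr19:41225563-41226635) had 61.7, or 57.5 per kb. It covered the first 131 of the 300 bases of that window, which hold the printed TEAD and SOX letters, and ended before both E-boxes and the start itself. Start regions are here, for each start window of a protein-coding gene, the strongest listed region overlapping it, 11090 regions in all. Per kb, the upstream region stood at percentile 13.1 and the downstream region at percentile 57.3 of these. The downstream value is thus one for sequence before that start, while the upstream region covered its whole window.

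The upstream AXL region had a log2 fold change of -0.085 (standard error 0.54) and the downstream one 0.35 (standard error 0.26, 95% interval -0.17 to 0.87) in the authors' deposited table. The mean and the fold change together imply about 54.2 normalized reads with vehicle and 69.2 with octanoate in the downstream region, and 16.3 and 15.4 in the upstream one. These implied levels are the pair of group means that average to the deposited mean and differ by the deposited fold change. The downstream region was just under the lowest tested mean, its unadjusted p was 0.185, and both intervals included 0. The AXL window also took in a pair of regions beyond its 3′ end that cover starts of HNRNPUL1, an RNA-binding protein gene, and the tested one of these (chr19:41263492-41264904) had a log2 fold change of 0.11 with an adjusted p of 0.855.

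MERTK, which spans chr2:111898607-112029561, had 8 regions, none of them tested. Its start region (chr2:111897849-111898865) was its strongest, with a mean signal of 33.5 and, in the authors' deposited table, a log2 fold change of 0.25 (standard error 0.36). The remaining 7 MERTK regions had means of 3.60 to 14.2, with 3 fold changes above 0 and 4 below. All 8 intervals included 0, and the median standard error over MERTK regions was 0.64.

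TYRO3 spans chr15:41559212-41583589, and the region at its upstream start (chr15:41558727-41559491) had a mean signal of 19.4 and a log2 fold change of -0.18 (standard error 0.50) in the authors' deposited table. Per kb this region, at 25.3, was the weakest of the 10 regions at member starts, although its window is among the richest in CpG. The downstream TYRO3 start window lay 231 bp from that region and in no listed one. A region beyond the 3′ end (chr15:41585219-41586033) had the highest TYRO3 mean, 28.2, and its log2 fold change was 0.39 (standard error 0.39). No TYRO3 region was tested.

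GAS6, the ligand, spans chr13:113820549-113864076 on the minus strand. Its strongest regions lay inside the gene and not at its start: one 26.4 kb from the start (chr13:113836960-113838325) had a mean signal of 83.6, and one 42.8 kb from it (chr13:113820753-113821764) had 75.0. Their log2 fold changes were 0.33 (standard error 0.23, adjusted p 0.520) and 0.30 (standard error 0.24, adjusted p 0.575) in the authors' deposited table. The implied levels of the stronger one were 74.2 with vehicle and 93.0 with octanoate. The start region, shared with the start of GAS6-DT, had 26.4 reads and a log2 fold change of -0.14 (standard error 0.41). Both inner regions lie within the span of the antisense gene GAS6-AS1, and ATAC-seq cuts do not assign a region to a strand.

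MET, the receptor for hepatocyte growth factor, spans chr7:116672196-116798377. Its start region (chr7:116671561-116673160) had a mean signal of 148 in the authors' deposited table. At 92.3 normalized reads per kb it was the most open start among the 9 genes, at percentile 87.5 of start regions of protein-coding genes. Its log2 fold change was 0.23 (standard error 0.17, adjusted p 0.548), with implied levels of 136 with vehicle and 159.6 with octanoate. The printed MET sequence holds 2 of the window's 3 GC boxes.

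Inside MET, 2 other regions were tested. The one 110.3 kb from the start (chr7:116782084-116782882) had the highest log2 fold change of the tested regions outside IGF1R, 0.53 (standard error 0.28, 95% interval -0.015 to 1.07, adjusted p 0.350), in the authors' deposited table. Its implied levels were 54.0 with vehicle and 77.9 with octanoate. The one 44.7 kb from the start (chr7:116716435-116717347) had 0.32 (standard error 0.25, adjusted p 0.557). Of the 14 MET regions 10 were above 0 and 4 below, with a median of 0.24. The lowest value among regions above the table's median mean signal was -0.074 (chr7:116706550-116707242).

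**Figure D3:**
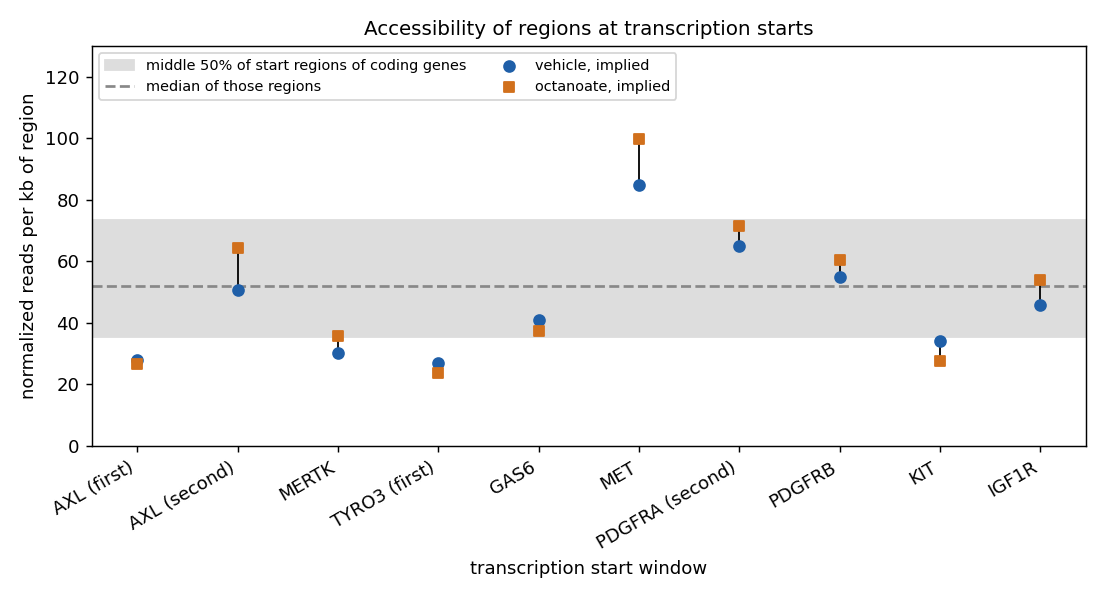
Normalized reads per kb of region, as implied for vehicle (circles) and octanoate (squares) by the deposited mean and fold change, for the 10 start windows that a listed region overlaps; the grey band holds the middle 50% of start regions of protein-coding genes. MET stands above the band in both groups, and the AXL upstream, TYRO3 and KIT starts stand below it in both.

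PDGFRA, PDGFRB and KIT encode class III receptors: PDGFRA and PDGFRB bind platelet-derived growth factors, and KIT binds stem cell factor. Of their 17 regions 1 was tested, 11 were above 0, and the authors' deposited table gave a median of 0.069 (log2).

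PDGFRA spans chr4:54229293-54298245. Its upstream start window lay in no listed region, the nearest ending 565 bp away (chr4:54227411-54228478, mean signal 46.2, log2 fold change 0.18, standard error 0.31). The downstream start lay in a region 1905 bp wide (chr4:54232754-54234658) with a mean signal of 129.9, which was 55.0% of the summed mean signal of the 5 PDGFRA regions. The sequences printed above differ in the same order: 8 CpG in the upstream and 32 in the downstream window. The log2 fold change of the downstream region was 0.14 (standard error 0.18, 95% interval -0.23 to 0.50, adjusted p 0.765) in the authors' deposited table. All 5 PDGFRA regions had values between 0.028 and 0.18, the narrowest range of the 9 genes. All 5 lay below the median of all tested regions, and relative to it they ran from -0.16 to -0.0097.

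PDGFRB spans chr5:150113839-150155845 on the minus strand. Its start region (chr5:150155438-150156142) had a mean signal of 40.7, or 57.7 per kb, and a log2 fold change of 0.14 (standard error 0.33) in the authors' deposited table. A region 5.97 kb upstream (chr5:150161632-150161989) had 0.66 (standard error 0.44, unadjusted p 0.133), and one 2.49 kb upstream (chr5:150158188-150158474) had -0.94 (standard error 0.69, unadjusted p 0.168). These neighbours had mean signals of 23.4 and 10.3, were not tested, and both had intervals that included 0. The strongest PDGFRB region (chr5:150112160-150113246, mean 52.4, log2 fold change 0.097) lies beyond its 3′ end within the span of CSF1R, a related receptor gene.

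KIT spans chr4:54657957-54740715 and lies 359.7 kb beyond PDGFRA. It had 3 regions, or 2.92 per 100 kb of gene and flanks, the fewest of the 9 genes. Its start region (chr4:54657675-54659376) held 63.3% of their summed signal, with a mean of 52.5 and 30.8 normalized reads per kb, at percentile 18.5 of start regions. The log2 fold change there was -0.31 (standard error 0.30, 95% interval -0.90 to 0.28, unadjusted p 0.300) in the authors' deposited table, with implied levels of 58.2 with vehicle and 46.8 with octanoate. It was the lowest value among the 10 regions at member starts and stood at percentile 3.50 of start regions of protein-coding genes, but the region was not tested and its interval included 0. The other KIT regions had 0.15 (chr4:54661224-54662011) and -0.036 (chr4:54746281-54746507).

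IGF1R, the receptor for insulin-like growth factors, spans chr15:98648539-98964530 and is the longest of the genes at 316 kb. Its 37 regions covered 35331 bp and made up 39.8% of the 93. The authors' deposited table had fold changes above 0 for 31 of the 37 (83.8%), with a median of 0.28, and all 9 tested regions were above 0. Outside IGF1R, 36 of 56 regions were above 0, with a median of 0.12. The difference between IGF1R and the other genes was not tested.

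The IGF1R start region (chr15:98646854-98651992) was 5139 bp wide and had the highest mean signal of the 93, 256, spread at 49.9 normalized reads per kb, close to the middle of start regions (percentile 47.2). Its log2 fold change was 0.24 (standard error 0.14, 95% interval -0.044 to 0.52, adjusted p 0.437) in the authors' deposited table. The implied levels were 236 with vehicle and 277 with octanoate. The region also covers the start of IRAIN, a long noncoding RNA gene within IGF1R, so the 2 starts cannot be told apart here.

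Inside the gene, 4 of the 9 tested regions were higher at an unadjusted p under 0.05, as were 14.8% of all tested regions. After subtracting the tested median none of the 4 kept such a p, the smallest being 0.111. The one 79.6 kb from the start (chr15:98727376-98728817) had a mean signal of 91.5 and a log2 fold change of 0.55 (standard error 0.23, unadjusted p 0.0156, adjusted p 0.208) in the authors' deposited table, the smallest adjusted p of the 93 regions. It stood at percentile 94.8 of the fold changes of all tested regions, and its implied levels were 74.3 with vehicle and 109 with octanoate. The others lay 139.9 kb, 218 kb and 248 kb from the start, with log2 fold changes of 0.39 (chr15:98787994-98788915), 0.43 (chr15:98865215-98866918) and 0.39 (chr15:98896214-98897709), and with adjusted p of 0.312, 0.312 and 0.332. The most open IGF1R region per kb was the one 139.9 kb from the start, at 134 normalized reads per kb.

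The other tested IGF1R regions had smaller or less precise values. A region 205 kb from the start (chr15:98852020-98854477) had the second highest mean in the gene, 147, and its log2 fold change was 0.13 (standard error 0.18, adjusted p 0.759) in the authors' deposited table. A region 167 kb from the start (chr15:98815076-98815903) had 0.42 (standard error 0.23, adjusted p 0.378). Among regions above the table's median mean signal, tested or not, the lowest value was -0.26 (chr15:98735381-98736459, standard error 0.41). The highest was 0.79 (chr15:98751704-98752201, standard error 0.56). Neither of these was tested, and both intervals included 0. One weak region, chosen after its values were seen (chr15:98734541-98734842), had a log2 fold change of 2.93 (standard error 1.13, 95% interval 0.72 to 5.14, unadjusted p 0.0094). Its mean signal of 5.01 amounts to 20.0 normalized reads over the 4 libraries together, and it was not tested.

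**Figure D4:**
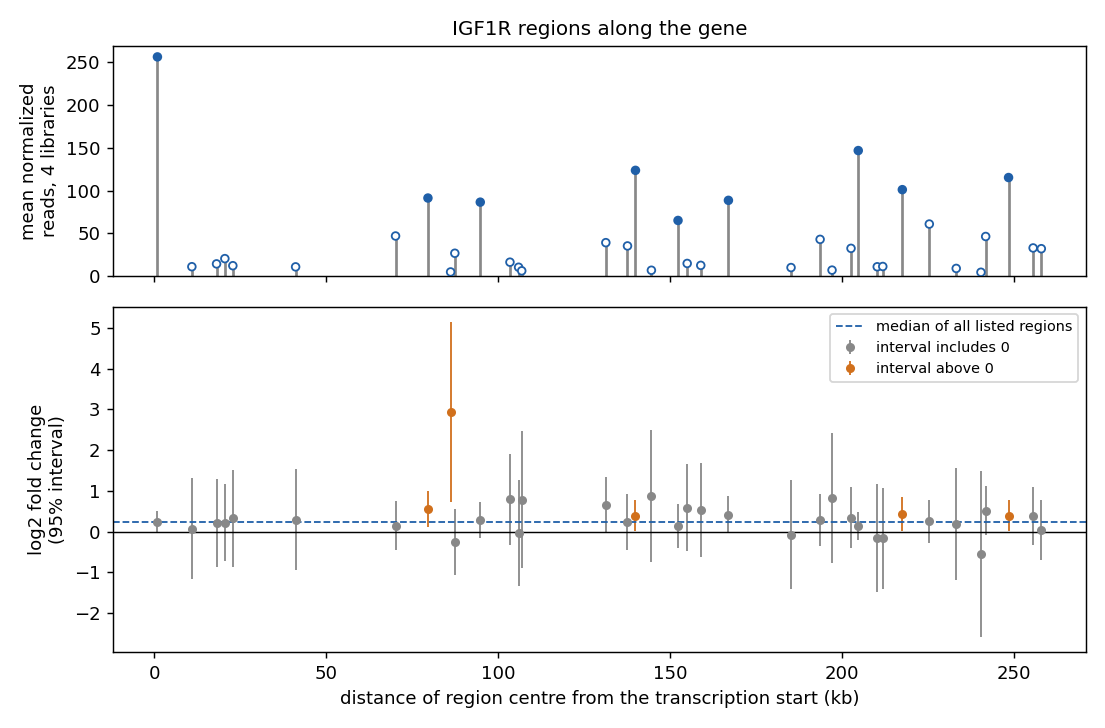
The 37 IGF1R regions by distance of their centre from the transcription start in kb: mean signal over the 4 libraries above (filled where tested), and log2 fold change with its 95% interval below. Intervals lie above 0 at 5 regions, of which 4 were tested, and the tall interval at 86.2 kb is the region with a mean of 5.01.

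Regions at starts and elsewhere were set side by side. A region counted as a start region if it was the strongest listed region overlapping the start window of any protein-coding gene. Weaker regions over the same window counted as other regions. Start regions made up 12 of the 93, including 2 at HNRNPUL1 starts. On the log2 scale these 12 had a median change of 0.14 and the other 81 had 0.23, in the authors' deposited table. Over the whole table the 11090 start regions had 0.14 and all other regions 0.25. Per kb, the 12 had a median of 53.7 normalized reads, beside 52.0 for all start regions, and the 81 had 33.0, beside 26.7 for all other regions.

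The genes are set beside their surroundings, whose part in the genes' values was not tested. Gene medians ran from -0.036 for KIT to 0.32 for GAS6 in the authors' deposited table. Regions within 1 Mb of each gene, beyond its 10 kb flanks, had medians from 0.11 around MERTK to 0.42 around GAS6. PDGFRA and KIT share part of these surroundings. GAS6 lies 0.490 Mb from the last listed region of chromosome 13, and IGF1R, whose surroundings had a median of 0.41, lies 3.02 Mb from the last of chromosome 15. Chromosome 15, with IGF1R and TYRO3, had a median of 0.31, and chromosome 4, with PDGFRA and KIT, had 0.16. The gene median was below that of the surroundings in 7 of 9 genes, with MET and MERTK above, and below that of the chromosome in 7 of 9, with MET and GAS6 above.

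**Figure D5:**
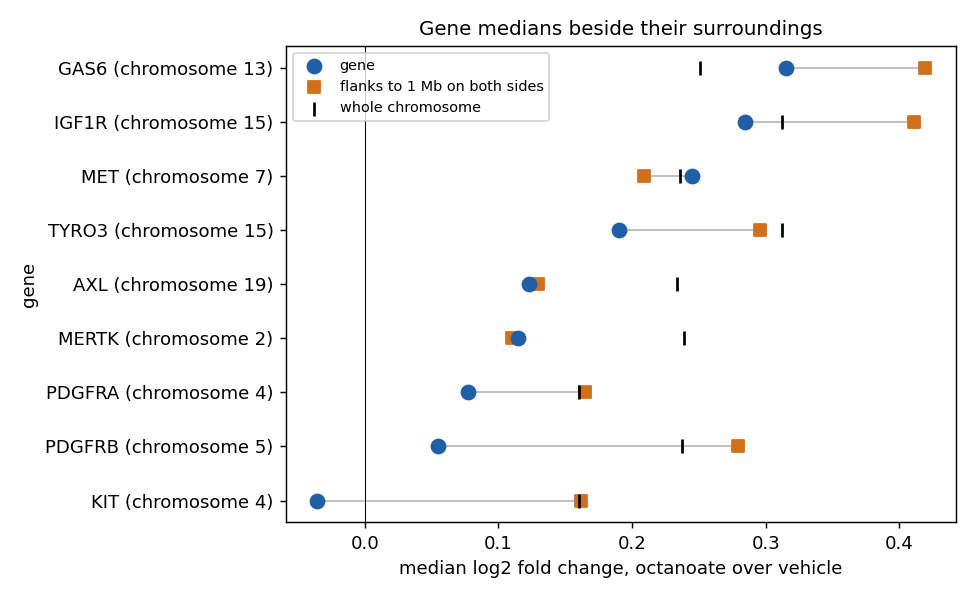
Median log2 fold change of each gene's regions (circles), of regions within 1 Mb on both sides beyond the 10 kb flanks (squares) and of the whole chromosome (vertical ticks). The highest gene medians, GAS6 at 0.32 and IGF1R at 0.28, stand beside the highest surroundings, at 0.42 and 0.41.

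Other genes of these pathways were read by the same position rule: 35 genes for ligands, related receptors, adaptors and kinases, and brakes on signalling. Of their 223 regions 31 were tested, and the authors' deposited table gave a median of 0.18 (log2) over the 223. The region chr5:150112160-150113246, within CSF1R, is in the 223 and also among the 93, under PDGFRB. Of the 31, 0 had an adjusted p under 0.05, and 2 were higher and 0 lower at an unadjusted p under 0.05, beside the 14.8% and 0.107% of all tested regions given above. One was a region within CBLB, a ubiquitin ligase that removes activated receptors (chr3:105792110-105792922, log2 fold change 0.71, standard error 0.26, adjusted p 0.136). The other covers the start of IRS2, an adaptor of the insulin and IGF1 receptors (chr13:109781700-109787889, log2 fold change 0.26, standard error 0.11, adjusted p 0.231), and had a mean signal of 508.

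By role, 9 ligand genes had 59 regions with a median of 0.16 and 5 tested, 3 of these above 0, and 5 related receptor genes had 18 regions with a median of 0.24 and none tested. The 12 adaptor and kinase genes had 89 regions with a median of 0.13 and 14 tested, 10 of these above 0. The 9 genes listed as brakes were CBL, CBLB, SH2B3, SOCS2, ERRFI1, IGFBP3, IGFBP5, ADAM10 and ADAM17. Whether each acts as a brake on the member receptors was not tested. These brake genes had 57 regions with a median of 0.23 and 12 tested, all 12 above 0. Over the 4 roles 25 of 31 tested regions were above 0, beside 85.7% of all tested regions. After subtracting the tested median, 9 of the 31 stayed above 0, among them 5 of the 12 of brake genes. All tested regions together divide evenly around that median by definition. KITLG, the gene of stem cell factor, had a start region with a mean signal of 125, or 37.4 normalized reads per kb, and a log2 fold change of -0.0029 (standard error 0.19) in the authors' deposited table. PROS1, whose product protein S is a ligand of TYRO3 and MERTK, had a start region with a mean of 86.3, or 78.9 per kb, and a log2 fold change of 0.071 (standard error 0.23). HGF, the ligand of MET, had 3 regions with means of 8.90 to 14.9, and its values of -0.43 to 0.21 had intervals that included 0.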

How the data were processed

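ATAC-seq was read in 4 libraries of A375 cells, 2 with octanoate and 2 with vehicle, grouped by sample title. The submitters' processing notes name the build hg38 and the tools Trim Galore, cutadapt, FastQC, Bowtie2, Picard, MACS2, featureCounts, DESeq2 and bedtools 2.29.1, without role or order. Whether peaks were called on pooled libraries, and any shift for the Tn5 cut, are not given in the sources used here.

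Per the file headers, the authors deposited for each region a signal (the mean normalized read count), a log2 fold change, its standard error, a score (the Wald statistic), a p-value and an adjusted p-value. Recomputing the score and the Benjamini-Hochberg adjustment gave the deposited values over 11185 regions; regions listed with an adjusted p of 1 below a mean of 63.8 were treated as not tested. No group test was made, as no column holds a single library. Intervals of 95% are the fold change plus or minus 1.96 of the authors' standard errors.

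Gene spans and start windows came from RefSeq GRCh38.p14 and matched all 9 genes; exons and introns were not analysed here. Named regions were, per gene, the one nearest the annotated start, the strongest, the highest and lowest fold change at or above the table's median mean signal, and tested regions with an unadjusted p under 0.05. Others described were chosen after their values were seen. Members and lists were chosen with earlier results of these data known. Alternatives changed the adjustment, threshold, centring and span. Python 3.11.15, pandas 2.3.3 and scipy 1.17.1 were used, and the adjustment and centring were tested on simulated data.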

Additional observations from a re-analysis of the deposited data

How the results depend on the processing

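The count of 0 member regions past the threshold was also 0 with Benjamini-Hochberg over all listed regions and after centring on the tested median. It was also 0 at adjusted p of 0.01 and 0.1, with the gene span alone (80 regions) and with 50 kb flanks (127 regions, 17 of them tested). The count of 0 for the pathway genes was also 0 at an adjusted p of 0.1 and with the gene span alone. The smallest adjusted p was 0.208 for members and 0.136 for pathway genes, so cuts of 0.01 and 0.1 could only give 0. The gene span alone keeps only regions already counted, so it too could only give 0. The members' median log2 fold change of 0.21 became 0.23 with the gene span alone, 0.23 with 50 kb flanks, 0.23 at or above the table's median mean signal, 0.31 in tested regions, 0.12 as the median of the 9 gene medians and 0.12 without IGF1R, the gene with most regions. It was -0.023 relative to the median of all listed regions and, chosen after seeing the data, -0.077 relative to each region's chromosome. The median of all listed regions exceeds 0.21, which accounts for the first sign; for the second, the cause was not tested.

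Centring on the tested median lowered every value, so a named region already below 0 could not change sign. Of 29 named regions, such regions included, 21 kept their sign. The other 8 turned negative because their fold changes were below that median: AXL beyond its 3′ end (-0.078), KIT inside the gene (-0.037), PDGFRA upstream (-0.0097), at its downstream start (-0.051) and inside (-0.16), and PDGFRB beyond its 3′ end (-0.090), inside (-0.13) and at its start (-0.043). No paired analysis was possible because single libraries have no columns of their own, and for the same reason no replicate was left out.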
